A study of Mus musculus with 17 samples.

Results

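The complement system was represented by 9 genes that encode components of the cascade and receptors for its fragments: C1qa, C1qb, C1qc, C3, C4b, Cfb, Cfd, C3ar1 and C5ar1. They were taken by symbol from the 35285 genes of the expression table, and all 9 were found. None of the 9 is an inhibitor of complement, so the inhibitory regulators were examined in a wider list of 48 further complement genes, of which 47 were found. Complement is a chain of plasma and tissue proteins that is started by antibody and cell debris through C1q, by sugars through lectins, or by slow spontaneous activation of C3 through the alternative pathway. All routes meet at the cleavage of C3, which tags surfaces for uptake by phagocytes. The cleavage of C3, and then of C5, releases small peptides that attract and activate leukocytes through C3ar1 and C5ar1 respectively. The liver makes most plasma C3, whereas C1q is made mainly by macrophages and microglia, and cochlear macrophages are known to increase in number after acoustic trauma.

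RNA was measured in 17 cochlear libraries, each from 1 male wild-type C57BL/6J mouse aged 8 weeks. The control group (n = 3) received saline and no noise, the NE group (n = 7) received noise of 8 to 16 kHz for 2 h at a level of 100 dB SPL, and the brimonidine group (n = 7) received the same noise and 3 intraperitoneal injections of 1 mg/kg brimonidine, an α2-adrenergic agonist, on the day before, the day of and the day after exposure. Tissue was taken 2 days after exposure, and all mice shared the wild-type background. The labels give the tissue as cochlear cells and the cell type as interstitial cells, but the libraries were bulk RNA, in which fewer cells of a type and less RNA per cell cannot be told apart. The design held no unexposed mice given brimonidine among the sequenced libraries. The study's methods state no injection for the NE group, whereas the control and brimonidine groups were injected. If none was given, injection cannot be told apart from the drug in brimonidine against NE, or from noise in NE against control.

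The values are FPKM, the fragments of a gene relative to its exon length and to the total counted in its library, so levels can be set beside each other between genes. Depth recovered from the values was 14457733 to 18288854 fragments. Of 11 genes of cochlear epithelium and lateral wall, 8 had a mean of at least 1 FPKM, among them Coch, Otos and Myo7a. All 10 neutrophil markers were found, and S100a9 alone had a median of 18558 FPKM in the noise-exposed libraries. All 6 hepatocyte markers had a mean under 1 FPKM, and Alb was listed at 0 in each control. Control 2 stood apart from the other controls. Its summed neutrophil markers reached 9752 FPKM against 43520 in control 1 and 45946 in control 3, whereas its summed central neuron markers reached 526 FPKM against 192 and 201. The same central neuron markers summed to 14.4 to 28.0 FPKM after NE and to 13.4 to 65.9 FPKM after NE with brimonidine. Brimonidine 5 alone reached 65.9 FPKM, and the next library of its group reached 18.2 FPKM. By limma all 7 passed as lower than in the controls in both comparisons, against 12% of all genes for NE and 12.3% for brimonidine. Without control 2, the lower level of these markers passed for 5 of the 5 that could then be tested in NE and for 7 of 7 in brimonidine. Of all genes, 1040 of 15431 and 1472 of 15535 then passed in either direction. Values without control 2 are therefore given beside the complement genes' comparisons with the controls.

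The 9 genes lie on 5 chromosomes in mm10. The C1q chain genes form a cluster on the minus strand of chromosome 4, with C1qb at chr4:136880129-136886187, C1qc at chr4:136889804-136893065 and C1qa at chr4:136895917-136898803. C4b at chr17:34728380-34743882 and Cfb at chr17:34856374-34862518 lie in the major histocompatibility region of chromosome 17, and C3 lies on the same chromosome at chr17:57203970-57228136. Cfd is at chr10:79890853-79892655, C3ar1 at chr6:122847138-122856161 and C5ar1 at chr7:16246743-16259540.

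RefSeq promoters (GRCm38.p6) were available for 6 of the 9 genes, namely C1qb, C1qc, C3, Cfd, C3ar1 and C5ar1, and the 250 bases before each RefSeq start were searched on both strands for the GAGGAA core bound by PU.1, a master factor of myeloid cells, and for the TGCTGA half-site bound by MAF factors. The matches are printed below with 12 bases on either side where the window allows, because the C1q genes varied together between libraries. Each sequence is written 5′ to 3′ on the strand of its gene, the minus strand in each case, and the capitals mark the motif or its reverse complement. The RefSeq start lies 202 bases inside the gene span given above for C5ar1 and 151 bases inside it for C1qc, so the C5ar1 match lies within the annotated gene, while the C1qc match lies before it. For the other 4 genes the starts differ by at most 13 bases.
C1qb, PU.1 core, chr4:136886213-136886242: gcagcaggatggGAGGAAcagaggggtgat
C1qb, MAF half-site, chr4:136886314-136886343: cccatccacaggTGCTGAgttggcgaaacc
C1qc, PU.1 core, chr4:136893090-136893119: gacggcagacacTTCCTCattttggcacac
C3, MAF half-site, chr17:57228301-57228330: accagcccaggtTCAGCAtctggccttgac
C3ar1, MAF half-site, chr6:122856284-122856313: cctgcctgcatcTCAGCAtctcgtagctaa
C5ar1, MAF half-site, chr7:16259339-16259367: ggtactgggtggTGCTGAgggtgtactgg
The PU.1 core was found in 2 of the 6 promoters, against 23.1% of all 27025 promoters of this length, and the MAF half-site in 4 of 6, against 15.8%. The Cfd window held neither motif. These matches describe the letters only, and the binding of a factor was not measured.

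C3 was the most abundant of the 9 genes, followed by the C1q chains and C5ar1, while Cfd and C3ar1 were weakly expressed and Cfb was barely detected. Averaged over all 17 libraries, C3 reached 188 ± 39.3 FPKM (SD), C1qa 82.7 ± 9.17, C1qb 75.0 ± 8.42, C5ar1 52.5 ± 10.7, C1qc 35.5 ± 3.63, C4b 20.96 ± 3.78, C3ar1 4.34 ± 1.12 and Cfd 4.26 ± 2.26 FPKM. The order was the same in nearly every library. C3 exceeded C1qa in 16 of 17 libraries, and C5ar1 exceeded C1qc in 16 of 17, with control 2 the exception both times. C1qa exceeded C1qb, C1qb exceeded C5ar1, C1qc exceeded C4b and C4b exceeded C3ar1 in all 17. C3ar1 and Cfd were not separated, since C3ar1 was the higher of the pair in 10 of 17 libraries.

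**Figure D1:**
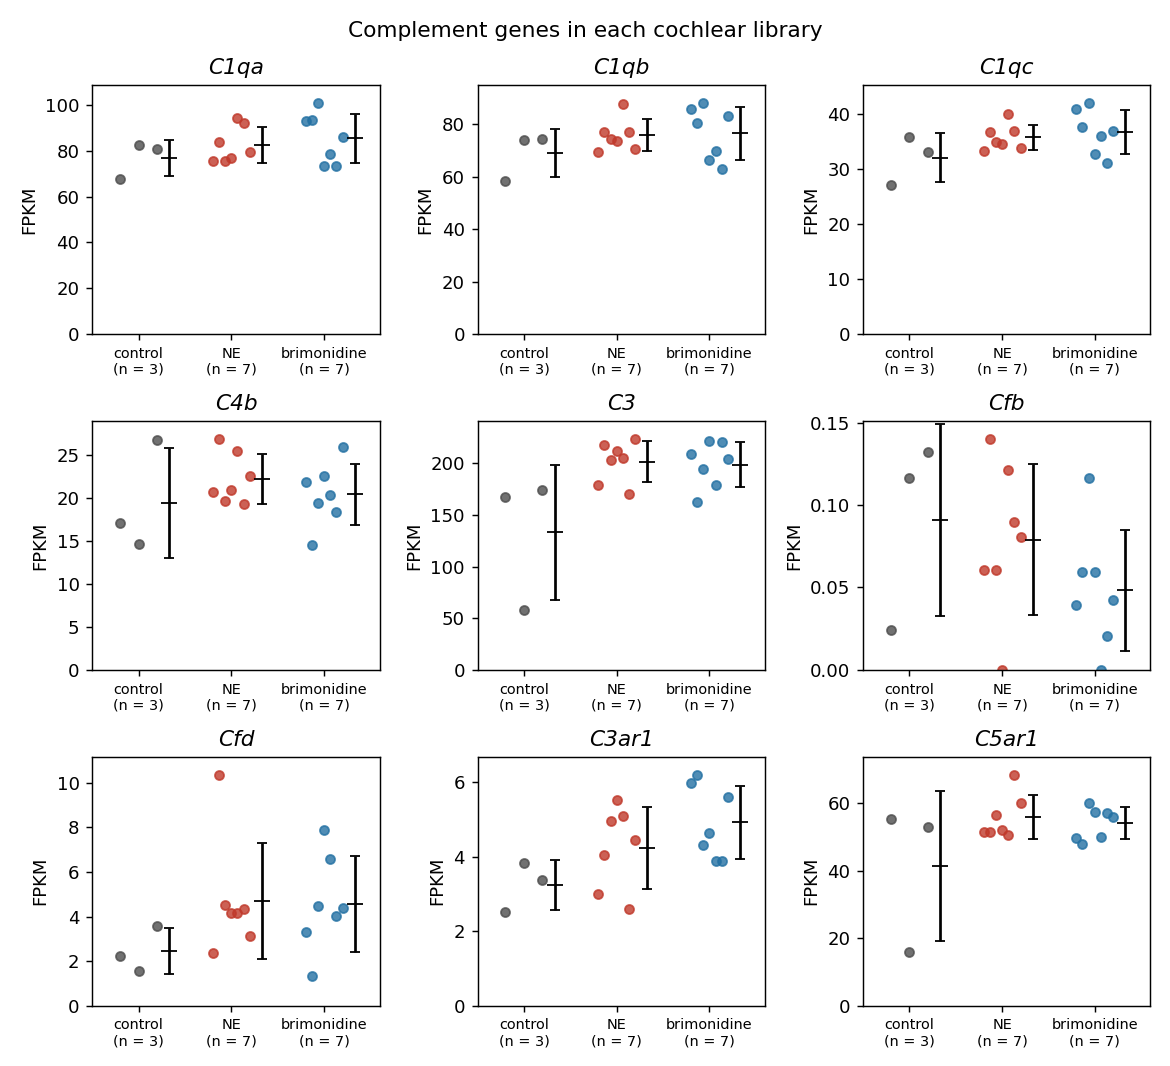
FPKM of each of the 9 complement genes (y axes, each starting at 0) in the control, NE and brimonidine groups (x axes). Each point is 1 library and the bars give the mean ± SD. C3 and C5ar1 are low in control 2, at 58.2 and 15.8 FPKM, and Cfb stays at or under 0.140 FPKM in every library.

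In the comparison of NE with control, which asks what noise does to cochlear transcripts at 2 days, none of the 8 complement genes that could be tested passed the test. By limma, 0 of 8 passed an adjusted p of 0.05, and 0 of 8 were called, meaning that they also changed at least 2-fold. Over all 15950 genes tested, 0.27% were called higher and 5.49% lower. In 0 of 8 did all NE libraries lie above all controls, against 3.24% of all genes. At an unadjusted p under 0.05 only C3 passed, 1 of 8, against 32.9% of all genes. All 8 estimates were above 0, with a median log2 fold change of 0.25, while the median of all genes was -0.04 and 43.9% of them were above 0. Without control 2, 8 of 8 were above 0 with a median of 0.21, and 0 of 8 passed. C3 did pass with all 17 libraries in 1 model (0.74, limma adjusted p = 0.029) and without control 1 (0.98, limma adjusted p = 0.047). Cfb stayed under the filter of 1 FPKM and was not tested.

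The comparison of brimonidine with NE, which asks what the drug adds in exposed ears, leaves the controls out. By limma, 0 of 8 genes passed the test or were called and 0 of 8 had an unadjusted p under 0.05, against 5.77% of all 15707 genes. Only 0.00637% of all genes passed as higher, and 0% were called in either direction. The estimates lay between -0.12 for C4b and 0.19 for C3ar1, with 4 of 8 above 0, and every adjusted p was at least 0.901. The 95% intervals were narrow for the abundant genes. That of C3 ran from -0.20 to 0.15 on the log2 scale, that of C5ar1 from -0.20 to 0.11 and that of C1qc from -0.11 to 0.17, whereas that of Cfd ran from -0.64 to 0.56.

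In the comparison of brimonidine with control, by limma, 0 of 8 genes again passed the test and 0 of 8 were called. The share of all 15947 genes called was 0.169% higher and 5.56% lower. C3 and C3ar1 passed an unadjusted p of 0.05, 2 of 8, against 35.6% of all genes. All 8 estimates were above 0, with a median of 0.34, while the median of all genes was -0.03 and 45.8% of them were above 0. Without control 2, 6 of 8 were above 0, the median was 0.21 and 0 of 8 passed. C3 passed here too with all 17 libraries in 1 model (0.72, limma adjusted p = 0.032) and without control 1 (0.96, limma adjusted p = 0.045). Both comparisons with control use the same 3 control libraries, so the values that follow are set side by side and are not independent.

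**Figure D2:**
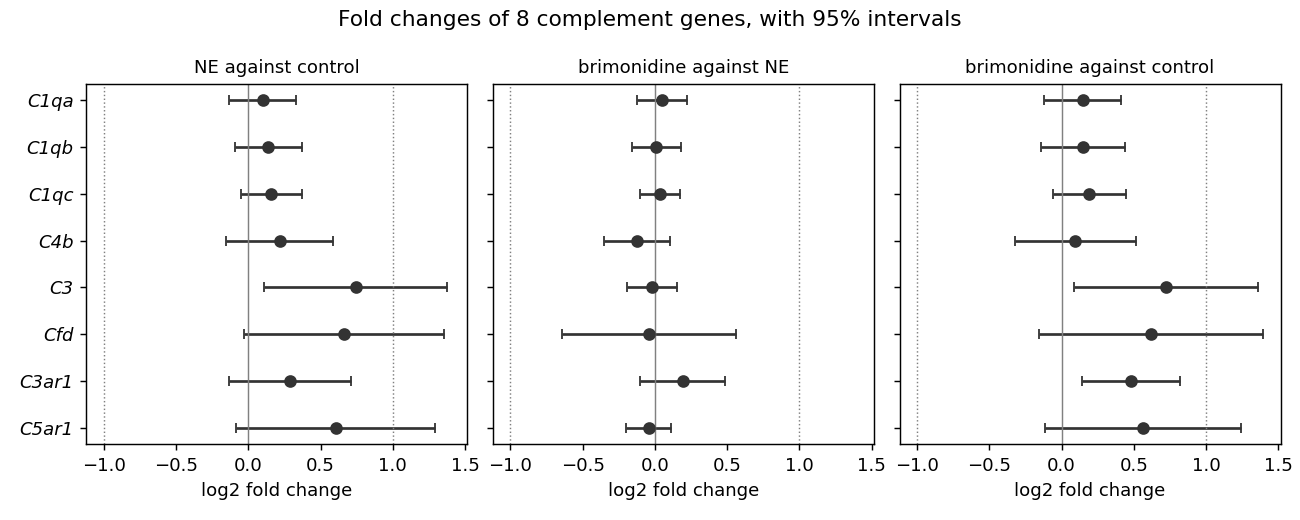
Log2 fold changes (x axes, on the log2(FPKM + 1) scale) of the 8 complement genes tested (y axis) in the 3 comparisons, as limma estimates with 95% intervals; the dotted lines mark a 2-fold change. The intervals of C3 and C5ar1 are wide in both comparisons with control, 0.11 to 1.38 and -0.08 to 1.29 for NE, and narrow between brimonidine and NE.

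C1q, the recognition subunit of the classical pathway, is built of 3 chains encoded by C1qa, C1qb and C1qc. C1qa measured 67.8, 82.4 and 80.6 FPKM in controls 1 to 3. It ranged from 75.5 to 94.2 FPKM in the NE group, with a median of 79.3, and from 73.2 to 101 FPKM in the brimonidine group, with a median of 86.1. The groups overlapped, and control 1 was the lowest library of all. The fitted log2 fold change of C1qa was 0.10 (SE 0.11, limma adjusted p = 0.532) for NE against control and 0.05 (SE 0.08, limma adjusted p = 0.973) for brimonidine against NE.

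C1qb measured 58.4, 74.1 and 74.4 FPKM in the controls, 69.5 to 87.9 FPKM in the NE group with a median of 74.6, and 63.0 to 88.0 FPKM in the brimonidine group with a median of 80.5. C1qc measured 27.2, 35.8 and 33.1 FPKM in the controls, 33.3 to 39.97 in the NE group with a median of 34.8, and 31.0 to 41.9 in the brimonidine group with a median of 36.8. Control 1 was again the lowest library for both chains, brimonidine 3 the highest, and the 3 groups overlapped. The log2 fold changes for NE against control were 0.14 for C1qb (limma adjusted p = 0.367) and 0.16 for C1qc (limma adjusted p = 0.259). For brimonidine against control they were 0.15 for C1qa, 0.15 for C1qb and 0.19 for C1qc, with limma adjusted p values of 0.407, 0.431 and 0.240. Without control 2 the estimates of C1qa, C1qb and C1qc were 0.15, 0.20 and 0.24 for NE and 0.20, 0.20 and 0.28 for brimonidine, with limma adjusted p values of at least 0.164. Without control 1, the lowest library, they were 0.012, 0.026 and 0.049 for NE and 0.059, 0.036 and 0.082 for brimonidine. Under quantile normalization, which raised the median change of all genes for NE against control from -0.04 to 0.06, the estimates of C1qa and C1qb for NE against control were -0.063 and -0.0080.

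The proportions between the 3 chains varied little. The level of C1qb was 0.906 ± 0.041 times that of C1qa over 17 libraries, between 0.838 and 0.986, and that of C1qc was 0.429 ± 0.019 times that of C1qa, between 0.400 and 0.460. These ratios had coefficients of variation of 4.54% and 4.41%, while among the exposed libraries the chains themselves varied by 10.9%, 10.5% and 8.68% and counting error alone was 2.55%, 2.62% and 2.85%. In the controls the ratio of C1qb to C1qa was 0.894 ± 0.031 (n = 3), against 0.921 ± 0.048 after NE (n = 7) and 0.897 ± 0.038 with brimonidine (n = 7).

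C4b encodes the C4 protein that the classical and lectin pathways cleave to build a C3 convertase. It has a close neighbouring copy, C4a, whose reads can be hard to separate, and its values are uncertain to that extent. C4b measured 17.1, 14.6 and 26.7 FPKM in the controls, 19.2 to 26.8 FPKM in the NE group with a median of 20.9, and 14.5 to 25.8 FPKM in the brimonidine group with a median of 20.3. Control 3 lay near the top of the range and control 2 near its bottom, so the controls spanned almost the whole spread of the exposed libraries. Its log2 fold change was 0.22 for NE against control (SE 0.17, limma adjusted p = 0.383), -0.12 for brimonidine against NE (SE 0.11, limma adjusted p = 0.920) and 0.09 for brimonidine against control (SE 0.19, limma adjusted p = 0.750). Weighting the libraries by their quality turned the 2 estimates against control to -0.17 and -0.27, with limma adjusted p values of 0.275 and 0.120. Without control 2 they were 0.042 and -0.080, with limma adjusted p values of 0.920 and 0.841, and without control 3 they were 0.46 and 0.33 (limma adjusted p = 0.056 and 0.189).

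C3 is the protein on which all pathways converge. It measured 167, 58.2 and 174 FPKM in the controls, 170 to 223 FPKM in the NE group with a median of 205, and 162 to 221 FPKM in the brimonidine group with a median of 204. The NE and control groups overlapped by control 3 alone, and control 2 lay far below every other library. The mean of the NE group was 201 ± 19.9 FPKM (n = 7) against 133 ± 65.0 FPKM in the controls (n = 3). This gave a log2 fold change of 0.74 (SE 0.29, limma adjusted p = 0.103). The exact permutation test of the group means gave p = 0.033 two-sided, where the smallest possible two-sided p is 0.017. Without control 2 the log2 fold change was 0.23 (limma adjusted p = 0.292).

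For brimonidine against control the log2 fold change of C3 was 0.72 (SE 0.29, limma adjusted p = 0.104), and without control 2 it was 0.21 (limma adjusted p = 0.301). Without control 1 the estimates were 0.98 and 0.96, and both then passed the test, with limma adjusted p values of 0.047 and 0.045. Brimonidine and NE differed by -0.02 (SE 0.08, limma adjusted p = 0.992). Among the 14 exposed libraries C3 varied by 10.1%, which was close to the spread of the C1q chains and of C5ar1.

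The alternative pathway was represented by Cfb, the protease precursor that binds C3b, and Cfd, the adipsin protease that activates it. Cfb was close to the limit of detection, with 0 to 7 fragments per library and at most 0.140 FPKM. It measured 0.024, 0.116 and 0.132 FPKM in the controls, 0 to 0.140 FPKM in the NE group with a median of 0.080, and 0 to 0.117 FPKM in the brimonidine group with a median of 0.043. NE 4 and brimonidine 5 had no fragment, which allows a level of up to 0.058 and 0.060 FPKM. With so few fragments a difference between groups was not detectable at this depth.

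Cfd measured 2.25, 1.57 and 3.57 FPKM in the controls, 2.35 to 10.3 FPKM in the NE group with a median of 4.15, and 1.33 to 7.89 FPKM in the brimonidine group with a median of 4.37. It was the most variable of the 8 genes tested, with a coefficient of variation of 49.4% over the exposed libraries against 11.5% from counting error and a median of 12.4% over all genes tested. The groups overlapped, and the high values sat in NE 2, brimonidine 4 and brimonidine 5. The NE mean was 4.71 ± 2.603 FPKM against 2.47 ± 1.02 FPKM in the controls. Cfd differed by 0.66 on the log2 scale for NE against control (SE 0.31, limma adjusted p = 0.168), -0.04 for brimonidine against NE (SE 0.28, limma adjusted p = 0.996) and 0.62 for brimonidine against control (SE 0.35, limma adjusted p = 0.224). Without control 2 the estimates against control were 0.47 and 0.43, with limma adjusted p values of 0.516 and 0.556, and without control 3 they were 0.88 and 0.84 (limma adjusted p = 0.116 and 0.160).

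Cfd is also an adipocyte gene, and some adipocyte markers were high in the same libraries. Cidec, a lipid droplet gene, measured 1.22, 1.30 and 0.606 FPKM in NE 2, brimonidine 4 and brimonidine 5, while its median in the exposed libraries was 0.285 FPKM. Plin1, which coats lipid droplets, measured 0.607 FPKM in NE 2 and 0.590 in brimonidine 4, against a median of 0.136. Not every marker of the list was high there. Adipoq measured 4.82, 5.80 and 3.95 FPKM in the 3 libraries, against a median of 4.68 and a highest value of 7.11 among the exposed libraries, in brimonidine 3, and of 7.44 in control 2. Car3, the most abundant marker of the list, measured 76.8, 79.7 and 86.2 FPKM, all under its median of 92.6. Of the 8 adipocyte markers, 4 had a mean of at least 1 FPKM, and the summed list was 82.5, 228 and 91.7 FPKM in the controls, 93.5 to 148 after NE and 96.9 to 118 with brimonidine. Car3 made up 212 FPKM of the sum in control 2, and controls 1 and 3 lay below every exposed library. Lep was at 0 in all 3 controls. The part of adipocytes in the Cfd values was not tested.

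C3ar1 encodes the receptor for the C3a peptide, found on macrophages and other myeloid cells. It measured 2.51, 3.84 and 3.38 FPKM in the controls, 2.59 to 5.52 FPKM in the NE group with a median of 4.44, and 3.88 to 6.19 FPKM in the brimonidine group with a median of 4.63. The brimonidine group lay wholly above the controls, by a narrow margin, whereas the NE group overlapped both. Over all genes, 5.07% lay wholly above the controls in the brimonidine group. The log2 fold change for brimonidine against control was 0.48 (SE 0.15), and the limma adjusted p of 0.057 missed the threshold. The exact permutation test gave p = 0.017 two-sided, which is the smallest value it can give for groups of this size.

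The C3ar1 estimate was 0.58 without control 2, with a limma adjusted p of 0.060. After median ratio scaling it was 0.56 (limma adjusted p = 0.023), after quantile normalization 0.68 (limma adjusted p = 0.008), and with array weights 0.45 (limma adjusted p = 0.011), so under these 3 settings C3ar1 passed the test. For NE against control the log2 fold change was 0.29 (SE 0.19, limma adjusted p = 0.314), and 0.16 without control 1 (limma adjusted p = 0.612). Brimonidine against NE gave 0.19 (SE 0.14, limma adjusted p = 0.901).

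Some macrophage and monocyte markers were higher in the same comparison. Of 12 such markers, all 12 averaged 1 FPKM or more. By limma 5 of 12 passed as higher in brimonidine than in control, against 3.47% of all genes, and 2 of 12 as higher in NE than in control, against 2.12%. None passed as lower, and the remaining 7 and 10 did not pass. Fcgr1, an Fc receptor, rose by 0.73 on the log2 scale for brimonidine against control (limma adjusted p = 0.003), and Csf1r, the receptor for macrophage growth factor, by 0.29 (limma adjusted p = 0.043). Without control 2, 5 of the 12 passed as higher for brimonidine, with Mertk in place of Csf1r, and 0 of 12 passed for NE. Of all genes, 1472 of 15535 for brimonidine and 1040 of 15431 for NE then passed in either direction. The changes of Fcgr1 and Csf1r for brimonidine were 0.55 and 0.28 without control 2 (limma adjusted p = 0.003 and 0.093). The summed list was 474, 238 and 501 FPKM in the controls, where the low value of control 2 followed Ly6c2 (61.7 FPKM there, against 249 and 208), and it ranged from 519 to 676 FPKM after NE and 498 to 602 FPKM with brimonidine. The part of macrophage number in the C3ar1 values was not tested.

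C5ar1, the receptor for the C5a peptide and a marker of neutrophils and monocytes, was far more abundant than C3ar1. It measured 55.2, 15.8 and 52.9 FPKM in the controls, 50.6 to 68.2 FPKM in the NE group with a median of 52.0, and 47.7 to 60.02 FPKM in the brimonidine group with a median of 55.9. Controls 1 and 3 lay inside the range of both exposed groups, and control 2 alone lay below it. The log2 fold change was 0.60 for NE against control (SE 0.31, limma adjusted p = 0.201) and 0.56 for brimonidine against control (SE 0.31, limma adjusted p = 0.211). Without control 2 these were 0.035 and -0.0067 (limma adjusted p = 0.901 and 0.977), and without control 1 they were 0.90 and 0.86 (limma adjusted p = 0.070 and 0.069).

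In control 2, C5ar1 stood at 29.3% and C3 at 34.1% of the mean of controls 1 and 3, and S100a8 and S100a9, 2 abundant neutrophil genes, at 17.8% and 19.3%. Elane and Ltf, which encode granule proteins of neutrophils, stood at 26.3% and 26.6%. Among the other members, Cfd stood at 54.0% and C4b at 66.7%. The C1q chains were not low there, with 111% for C1qa, 112% for C1qb and 119% for C1qc, and C3ar1 stood at 130%. Among the exposed libraries the summed neutrophil markers were highest in NE 6 and brimonidine 2, at 150% and 134% of the exposed median. C3 stood there at 82.8% and 79.1% of its exposed median, its lowest values in exposed libraries, and C5ar1 at 127% and 88.5%. The part of the neutrophil signal in C3 and C5ar1 was not tested.

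**Figure D3:**
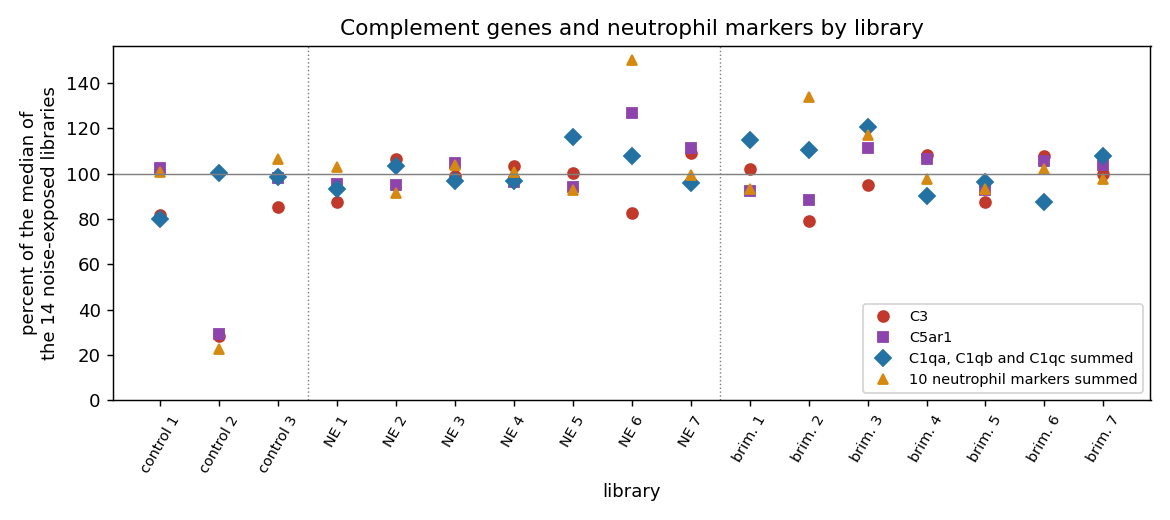
Levels of C3, C5ar1, the 3 C1q chains summed and 10 neutrophil markers summed (y axis, percent of the median of the 14 noise-exposed libraries) in each of the 17 libraries (x axis); the dotted lines part the control, NE and brimonidine groups. In control 2, C3 stands at 28.4%, C5ar1 at 29.4% and the neutrophil markers at 22.5%, while C1q stands at 100.5%. In NE 6 and brimonidine 2 the neutrophil markers stand at 150% and 134%, C3 at 82.8% and 79.1%, and C5ar1 at 127% and 88.5%.

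Likeness between the 9 genes was measured over the 14 exposed libraries, after the mean of each group was removed from log2(FPKM + 1). Of 36 pairs, 3 passed after Benjamini-Hochberg adjustment over the pairs, and these were the pairs of C1q chains. Pearson's r was 0.91 for C1qa with C1qb, 0.93 for C1qa with C1qc and 0.95 for C1qb with C1qc, with Spearman's rho of 0.90, 0.95 and 0.92. Each permutation p of Pearson's r was 1e-05, the smallest that 100000 resamples can give, and the adjusted p was 0.00012. The permutation p of rho was 2e-05, 1e-05 and 2e-05. Without the 2 libraries farthest from the median, r was 0.86, 0.88 and 0.92. Within the NE group alone r was 0.82, 0.90 and 0.98, and within the brimonidine group 0.95, 0.94 and 0.94.

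No other pair passed. The highest r among them was 0.63 for C4b with Cfd (permutation p = 0.016, adjusted p = 0.107), where rho was 0.42 (permutation p = 0.137) and r without the 2 farthest libraries was 0.52. For C4b with C3, r was 0.62 (permutation p = 0.018, adjusted p = 0.107) and rho 0.55 (permutation p = 0.046), and r was 0.47 without the 2 farthest libraries. C1qa with Cfb gave r = 0.62 (permutation p = 0.017, adjusted p = 0.107), rho = 0.64 (permutation p = 0.017) and r = 0.41 without the 2 farthest libraries, with 0 to 7 Cfb fragments behind each value. For the 2 peptide receptors, C3ar1 with C5ar1, r was -0.51 (permutation p = 0.060, adjusted p = 0.240) and rho was -0.53 (permutation p = 0.054). The genes of a pair share their library, its depth and its mixture of cells.

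**Figure D4:**
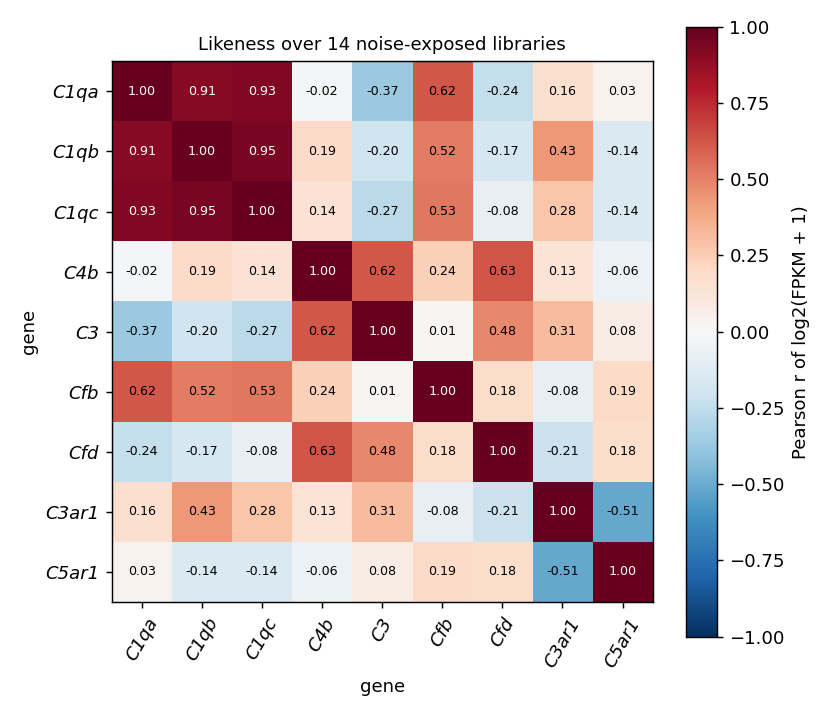
Pearson correlation (colour and printed value) between the 9 complement genes (both axes) over the 14 noise-exposed libraries, computed on log2(FPKM + 1) with the group mean removed. The 3 C1q chains form a block at 0.91 to 0.95, and the other pairs range from -0.51 for C3ar1 with C5ar1 to 0.63 for C4b with Cfd.

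Outside the 9 genes, the gene most like each member was sought among 14660 genes over the same 14 libraries. Because each is the highest of that many values, no p is given. For C4b it was Aebp1, a stromal matrix gene, with r = 0.94 and rho = 0.93. For C3 it was Vwf, an endothelial and platelet gene, with r = 0.89, which was 0.75 without the 2 farthest libraries. For C5ar1 it was Rac1, a small GTPase, with r = 0.92, and for C3ar1 it was Pard6b, a polarity gene, with r = 0.94. C1qa was most like Pigyl (r = 0.88), C1qb most like Mdk (r = 0.88) and C1qc most like Dusp2 (r = 0.90), values that were under those of the C1q chains with each other. Cfd was most like Tmem115, with r = 0.84 but rho = 0.60, and r was 0.62 without the 2 farthest libraries. For Cfb, at a handful of fragments, the highest was Tmem53 with r = 0.84.

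The other complement genes were divided by role. Of 16 initiators and proteases of the classical and lectin pathways, 6 had a mean of at least 1 FPKM over the 17 libraries. The same held for 4 of 10 soluble regulators, 4 of 6 membrane regulators, 6 of 8 receptors and the single further alternative pathway gene, properdin. Of the terminal components, which form the membrane attack complex, 6 were found and 1 reached a mean of 1 FPKM. That gene was C8g, which like Hc below was picked out after its values were seen, and it measured 2.83, 3.40 and 3.08 FPKM in the controls. Hc, which encodes C5, the source of the ligand of C5ar1, measured 0.629, 0.084 and 0.754 FPKM in the controls and a median of 0.546 FPKM in the exposed libraries. In all, 22 of 47 genes reached a mean of 1 FPKM.

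The 6 most abundant were Clu, Itgb2, Fcnb, Serping1, Cfp and Itgam. Clusterin (Clu), a soluble inhibitor of the attack complex, averaged 266 FPKM over all libraries, and Serping1, the inhibitor of C1r and C1s, 95.9 FPKM. Itgb2 and Itgam, the chains of complement receptor 3 of phagocytes, averaged 246 and 44.6 FPKM. Fcnb, a ficolin of neutrophil granules that starts the lectin pathway, averaged 191 FPKM, and Cfp, which encodes properdin, 68.8 FPKM.

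Vtn, which encodes vitronectin, another soluble inhibitor of the attack complex, was lower in both exposed groups than in the controls. It measured 7.80, 21.5 and 7.47 FPKM in the controls, 3.31 to 5.69 FPKM in the NE group with a median of 4.00, and 2.87 to 6.16 FPKM in the brimonidine group with a median of 3.76. Neither exposed group overlapped the controls, and control 2 was the highest. Over all genes, 15% lay wholly below the controls after NE and 14.3% with brimonidine. The log2 fold change was -1.24 for NE against control (SE 0.27, limma adjusted p = 0.012) and -1.24 for brimonidine against control (SE 0.30, limma adjusted p = 0.018).

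Vtn passed in 16 of 17 alternatives in each comparison. It did not pass with the replicate number as a block, at -1.15 for NE and -1.39 for brimonidine (limma adjusted p = 0.327 and 0.110). With array weights the estimates were -0.75 and -0.77, under a 2-fold change. Without control 2 the Vtn estimates were -0.78 in both comparisons, with limma adjusted p values of 0.013 and 0.041. Without brimonidine 5 the estimate for brimonidine against control was -1.30 (limma adjusted p = 0.021). The central neuron and astrocyte markers were lower in the same comparisons, where 7 of 7 and 4 of 6 of them passed by limma. Of all genes, 12% passed as lower for NE and 12.3% for brimonidine. Without control 2, 3 of 6 astrocyte markers passed in each comparison, while 1040 of 15431 and 1472 of 15535 genes passed in either direction. The summed astrocyte list was 167, 338 and 204 FPKM in the controls, 47.5 to 68.3 FPKM after NE and 39.5 to 78.4 FPKM with brimonidine. The part of these cells in the Vtn values was not tested.

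Cd93, a receptor of endothelial and myeloid cells once proposed as a receptor for C1q, was higher in brimonidine than in control. It measured 12.5, 12.0 and 8.47 FPKM in the controls, 10.6 to 16.3 FPKM in the NE group with a median of 14.9, and 13.4 to 16.0 FPKM in the brimonidine group with a median of 14.5. The brimonidine group lay wholly above the controls, as it did for 5.07% of all genes, and the NE group overlapped them through NE 6. The log2 fold change was 0.39 (SE 0.11, limma adjusted p = 0.036), under a 2-fold change, and 0.46 without control 2 (limma adjusted p = 0.038). It passed in 9 of 17 alternatives. It did not pass without control 3 (0.23, limma adjusted p = 0.089), without 1 of brimonidine 1, 3, 4, 6 or 7 (0.37 to 0.40, limma adjusted p = 0.054 to 0.071), with no filter on low values (0.39, limma adjusted p = 0.054) or with the replicate number as a block (0.36, limma adjusted p = 0.446). For NE against control it was 0.37 (SE 0.14, limma adjusted p = 0.104) and passed in 5 of 17 alternatives, which ranged from 0.20 without control 3 (limma adjusted p = 0.317) to 0.69 with array weights (limma adjusted p = 0.00022), and the difference between brimonidine and NE was 0.03 (SE 0.08, limma adjusted p = 0.983).

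By limma, 23 of the 47 genes were tested in each comparison. For NE against control 1 passed, Vtn, and it was also called, with 9 of 23 at an unadjusted p under 0.05, against 32.9% of all genes. For brimonidine against control 2 passed, 1 in each direction, and 1 was called, with 10 of 23 at an unadjusted p under 0.05, against 35.6% of all genes. Without control 2 the unadjusted counts fell to 3 of 23 for NE and 5 of 23 for brimonidine, against 20.3% and 25.2% of all genes, while 1 and 2 genes still passed the test. For brimonidine against NE 0 of 23 passed and 0 of 23 had an unadjusted p under 0.05. Over all genes tested, 2.12% passed as higher and 12% as lower for NE against control, and 3.47% and 12.3% for brimonidine against control. The medians of the 23 log2 fold changes were 0.22, 0.12 and 0.01 for NE against control, brimonidine against control and brimonidine against NE.

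Of the 6 most abundant genes of the wider list, 4 were low in control 2, as C3 and C5ar1 were. Itgb2 stood there at 38.3% of the mean of controls 1 and 3, Fcnb at 31.7%, Itgam at 31.8% and Cfp at 60.6%, while Clu stood at 119% and Serping1 at 92.1%. The further 4 receptors of the list that averaged 1 FPKM or more were on both sides, with C5ar2 at 51.7%, C1qbp at 71.1%, Cd93 at 114% and Itgax at 118%. The log2 fold changes for NE against control were 0.69 for Itgb2, 0.80 for Fcnb, 0.78 for Itgam and 0.28 for Cfp, with limma adjusted p values of 0.097, 0.101, 0.107 and 0.220. Without control 2 they were 0.23, 0.26, 0.25 and 0.04. Clu gave -0.12 (limma adjusted p = 0.749) and Serping1 gave 0.22 (limma adjusted p = 0.390), and without control 2 they gave -0.015 and 0.18 (limma adjusted p = 0.985 and 0.671). For brimonidine against control Clu ranged from -0.64 to -0.17 over 17 alternatives and passed in 2 (lowest limma adjusted p = 0.006). There Fcnb, Itgb2 and Itgam each passed in 3 of 17, and Cfp and Serping1 in 0. For NE against control Fcnb and Itgb2 passed in 3, Itgam in 1, and Clu, Cfp and Serping1 in 0.

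**Figure D5:**
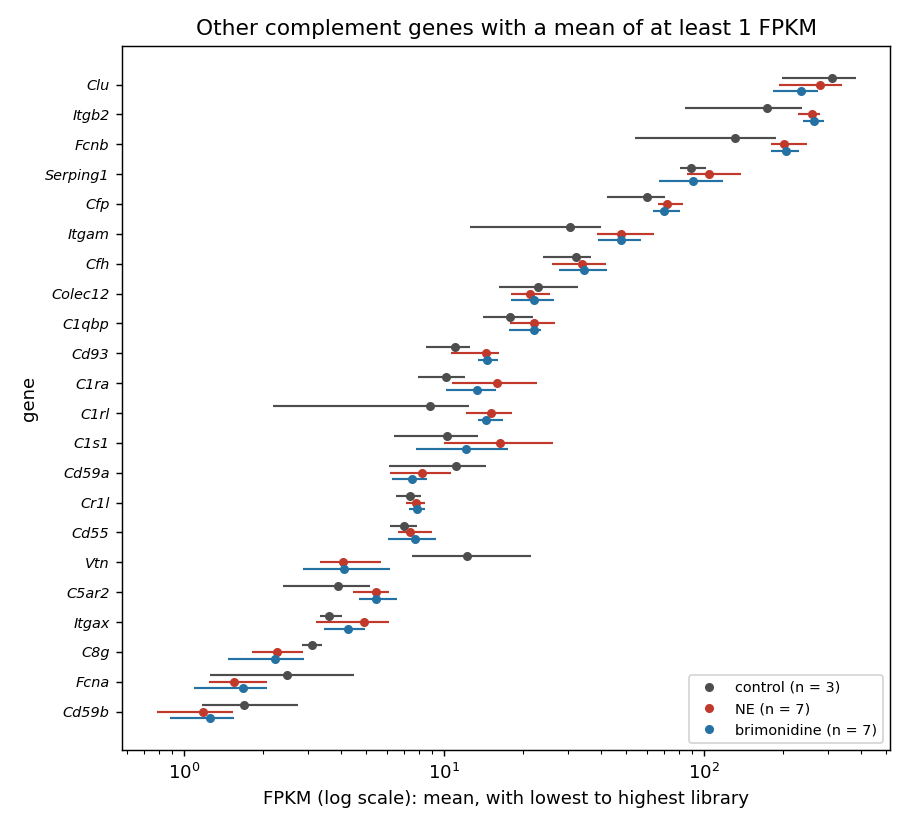
FPKM (x axis, log scale) of the 22 other complement genes that averaged 1 FPKM or more (y axis) in the control, NE and brimonidine groups; points are group means and lines run from the lowest to the highest library. Vtn is higher in the controls than in both exposed groups, and the control lines of Itgb2, Fcnb and Itgam reach down to 84.3, 54.0 and 12.5 FPKM in control 2.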

How the data were processed

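Cochlear RNA of 17 mice was extracted with TRIzol, made into stranded mRNA libraries (TruSeq) and sequenced on an Illumina NovaSeq instrument. Per the submitters' processing notes, Trimmomatic, HISAT2, HTSeq and Cufflinks were used with mm10, without versions or roles. The authors deposited FPKM values, and no further scaling between libraries was found. Multiplied by GENCODE M21 exon lengths, 91.0% to 91.6% of values were within 0.02 of a whole number of fragments, which gave depths of 14457733 to 18288854 fragments. The limit given for 0 fragments covers counting error only.

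Genes at or above 1 FPKM in 3 or more libraries of a comparison were tested on log2(FPKM + 1) with limma 3.58.1 in R 4.3.3 (lmFit, eBayes with trend, Benjamini-Hochberg over all genes tested), and each fit held the 2 groups of its comparison. Fold changes on this scale understate those of low genes. The authors used DESeq2, which needs counts. On simulated data the fit recovered the genes changed. Exact permutation tests and correlations used Python 3.11.15 and scipy 1.17.1, numpy 2.4.6 and pandas 2.3.3, and matplotlib 3.10.9 drew the figures.

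Groups came from the sample titles and treatment labels. The labels call the noise broadband and the methods octave-band. That each library came from a separate mouse rests on the study's methods. The 9 genes, the wider list, the markers and the tests were chosen with earlier results of these data known. Other complement genes were named if they passed a comparison or were among the 6 most abundant, and the gene most like each member was named. Markers were named where their list is described. C8b was not analysed here. Alternatives covered the pseudocount, the filter, median ratio and quantile scaling, all 17 libraries in 1 model, array weights, a replicate block, each library left out, and no minimum fold change.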

Additional observations from a re-analysis of the deposited data

Results flagged for a closer look

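Among the 9 genes in the 2 exposed groups of 7 libraries, libraries were looked for whose gap to the nearest value, as a share of the group's range, was above Dixon's 95% critical value for 7 values, and chance gives about 1 such library in 20 groups. In the NE group, Cfd measured 10.3 FPKM in NE 2, against 4.52 FPKM in the next library, a gap of 0.728 of the range. C1qb measured 87.9 FPKM in NE 5, against 77.1 FPKM in the next library, a gap of 0.587 of the range.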

How the results depend on the processing

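No complement member was called under any alternative run. The count of other complement genes called was 0 with array weights and with the replicate block, against 1, in both comparisons with control. With no minimum fold change it was 2 for brimonidine against control. Leaving out 1 library gave 0 to 3 for NE against control and 0 to 4 for brimonidine against control, with 0 in both without control 2, where the change of Vtn was under 2-fold. Without control 1 the genes added were Fcnb and C1rl for NE against control and Fcnb, C1rl and Itgam for brimonidine against control, and without control 3 Itgam was added for brimonidine against control. Over all genes, 930 of 15486 for NE and 1080 of 15604 for brimonidine against control were called without control 1. The counts were 368 of 15431 and 468 of 15535 without control 2, and 810 of 15477 and 908 of 15555 without control 3. With array weights 810 of 15950 and 872 of 15947 were called.

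For single members, with all 17 libraries in 1 model, C3 passed for NE against control (0.74, limma adjusted p = 0.029) and for brimonidine against control (0.72, limma adjusted p = 0.032). C3ar1 passed for brimonidine against control at 0.56, 0.68 and 0.45 under median ratio scaling, quantile normalization and array weights. For NE against control the sign turned for C1qa (-0.063) and C1qb (-0.0080) under quantile normalization and for C4b with array weights (-0.17). For brimonidine against control C4b was -0.27 with array weights. For brimonidine against NE, C1qb was -0.0057 under median ratio scaling and -0.0071 with array weights, C3 was 0.077 under quantile normalization and Cfd 0.068 with array weights. The cause of these changes was not tested.

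With 1 library left out, C3 ranged from 0.23 to 1.01 for NE against control and from 0.21 to 0.99 for brimonidine against control. For brimonidine against control C4b ranged from -0.080 to 0.33 and C5ar1 from -0.0067 to 0.86. For brimonidine against NE C1qb ranged from -0.025 to 0.054, C3 from -0.060 to 0.027, Cfd from -0.17 to 0.15 and C5ar1 from -0.068 to 0.0072. Over all members, alternatives and comparisons, 409 of the values kept their direction and side of the threshold, 24 changed sign and 7 passed the test.

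Replicate numbers are shared by the groups, but same-numbered libraries did not deviate together: over all genes the correlation ranged from -0.15 to 0.08 in the 7 pairs of brimonidine and NE, 0 of 7 were over 0.1, and 0 of 7 libraries were most like their own number. With the replicate number as a block, the C3 change was 0.73 for NE against control (limma adjusted p = 0.499) and C4b was -0.035 for brimonidine against control. Over all genes the block took the calls for NE against control from 918 to 0 and for brimonidine against control from 913 to 236. Scaling moved the median change of all genes for NE against control from -0.04 to 0.06, and the lower share of genes at an unadjusted p under 0.05 from 67.7% to 47.5% (median ratio) or 45.3% (quantile). Without the filter Cfb gave -0.016, -0.041 and -0.057 for NE against control, brimonidine against NE and brimonidine against control, with 0 to 7 fragments behind each value.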
